A study of Mus musculus with 8 samples.

Results

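The 43 genes described here encode the ligands, receptors, signal carriers and regulators of TGF-beta and BMP signalling. They were listed by name for their place in the pathway, with earlier results of these data known, and all 43 were found among the 21887 protein-coding genes of the annotation used (GRCm38). They comprise 10 ligand genes, 7 genes of extracellular processing and inhibition, 11 receptor genes, 8 Smad genes, 5 genes of nuclear co-repressors and ubiquitin ligases, and 2 target genes. The data came from chromatin immunoprecipitation followed by sequencing (ChIP-seq) of C57BL/6 mouse embryonic fibroblasts (MEF) with the Hmga2 wt genotype, isolated at E15.5 and grown for 2 to 4 passages. Each antibody's peak list came from 1 library: 152834 peaks of HMGA2, 124947 of γ-H2AX (labelled H2AXS139ph) and 119570 of ATM. The series has Hmga2 Ko libraries of the same 3 antibodies and an input of each genotype, which were not analysed here. There were no replicates, so no difference below has a test, and intervals cover counting error only. Peaks do not measure expression, so the fibroblast label was not checked against marker genes.

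In TGF-beta signalling, a secreted dimeric ligand brings type I and type II receptor kinases together, and the type I receptor phosphorylates receptor-regulated Smads. These bind the common mediator SMAD4 and enter the nucleus, where the complex controls transcription. TGF-betas and activins act mainly through SMAD2 and SMAD3, and BMPs mainly through SMAD1, SMAD5 and SMAD9. In fibroblasts the pathway is known for driving matrix production and the change to myofibroblasts. HMGA2 is an architectural chromatin protein whose AT-hooks bind the minor groove of AT-rich DNA. The kinase ATM is activated by DNA double-strand breaks, and γ-H2AX is histone H2AX phosphorylated by ATM and related kinases.

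Peaks reached the 250 bases before an annotated transcription start at 3 places among the 40 such windows available for 30 of the genes. They are printed because they are the windows in which a peak meets a start of these genes. Each is given from its distal to its proximal end relative to the start, with the bases covered by the peak in capitals, in RefSeq sequence of GRCm38.p6. The first lies before a start within Tgif1, which encodes a homeodomain co-repressor of Smads, at chr17:70851735-70851984 on the minus strand, and was met by an HMGA2 peak with a score of 20.7.
Tgif1, HMGA2: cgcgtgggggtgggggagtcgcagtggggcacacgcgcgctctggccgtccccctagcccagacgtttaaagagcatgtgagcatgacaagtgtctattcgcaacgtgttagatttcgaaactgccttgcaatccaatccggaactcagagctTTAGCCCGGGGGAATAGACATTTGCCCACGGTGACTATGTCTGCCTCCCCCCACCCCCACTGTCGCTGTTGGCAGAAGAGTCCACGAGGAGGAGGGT
The second lies before the innermost listed start of the same gene, at chr17:70846778-70847027 on the minus strand, and was met by a γ-H2AX peak with a score of 21.8.
Tgif1, γ-H2AX: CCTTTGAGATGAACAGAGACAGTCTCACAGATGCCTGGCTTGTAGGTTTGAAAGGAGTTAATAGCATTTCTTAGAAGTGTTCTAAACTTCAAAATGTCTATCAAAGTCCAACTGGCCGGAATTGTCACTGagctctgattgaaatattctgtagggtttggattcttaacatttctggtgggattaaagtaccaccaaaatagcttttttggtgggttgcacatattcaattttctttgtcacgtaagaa
The third lies before the listed start of Inhba, which encodes the activin βA subunit, at chr13:16011601-16011850 on the plus strand, and was met by a γ-H2AX peak with a score of 25.2.
Inhba, γ-H2AX: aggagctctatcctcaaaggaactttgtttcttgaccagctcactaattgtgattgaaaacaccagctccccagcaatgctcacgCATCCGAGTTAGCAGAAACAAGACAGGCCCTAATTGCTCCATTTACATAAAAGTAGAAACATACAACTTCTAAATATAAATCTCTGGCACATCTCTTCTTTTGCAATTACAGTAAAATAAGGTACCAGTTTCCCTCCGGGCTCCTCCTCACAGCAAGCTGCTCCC
Both windows met by γ-H2AX were rich in A and T, at 62.0% (Tgif1) and 56.8% (Inhba), against a median of 44.4% over 21263 windows of coding genes. The window met by HMGA2 had 41.2% A and T, below that median, and its covered bases had 39.2%. The Smad-binding letters CAGAC, searched on both strands, were in the HMGA2 window of Tgif1 and in neither of the others, and 40.9% of all windows hold them. The longer palindrome GTCTAGAC and the letters GGCGCC were in none of the 3 windows, and 0.183% and 12.3% of all windows hold them. HMGA2 met 1 of the 40 windows, γ-H2AX 2 and ATM 0, against 1.2%, 3.48% and 1.69% of all windows. These shares are too low for counts of 0 to 2 to be told apart from the background.

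Inside the gene bodies, γ-H2AX peaks were denser than in other genes of like length. The 43 bodies span 3.12 Mb and held 323 γ-H2AX peaks, or 10.35 per 100 kb (95% Poisson interval 9.255 to 11.55). Other coding genes from 0.8 times each member's length to the inverse of that factor, called genes of like length throughout, would give 184.5 peaks at 5.91 per 100 kb. The ratio was 1.75 (1.565 to 1.95). HMGA2 had 218 peaks in the same bodies, 6.99 per 100 kb against 6.11 in genes of like length, a ratio of 1.14 (0.996 to 1.305). ATM had 169 peaks, 5.42 per 100 kb against 4.80, a ratio of 1.13 (0.964 to 1.31). The interval of γ-H2AX lay wholly above 1, and those of HMGA2 and ATM included 1. These intervals count each peak as independent and leave out the spread between genes. The ratio of peak numbers was chosen after the data were seen, and the genes were listed with earlier results known. The intervals therefore cannot serve as a test. Among members of 20 kb or longer, γ-H2AX densities ran from 1.38 to 29.2 per 100 kb. With only peaks scoring at least 30 the γ-H2AX ratio was 1.96, and without Tgfbr1, the densest member, it was 1.69. In the 100 kb on either side of the genes the members had 5.95 γ-H2AX peaks per 100 kb, against 5.34 around genes of like length, which is a smaller difference than in the bodies.

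Among the 33 members of 20 kb or longer, 28 had more γ-H2AX peaks per 100 kb than the median gene of like length, 84.8% against 49.5% of all coding genes of that size. The same held for 21 members with ATM, 63.6% against 50.1%, and for 16 with HMGA2, 48.5% against 50% of coding genes. More γ-H2AX than HMGA2 peaks were found in 26 of these 33 bodies, fewer in 6 and as many in 1, whereas 42.1% of all coding genes of that size had more γ-H2AX peaks. Over all 43 members, γ-H2AX made up 59.7% (95% Wilson interval 55.5 to 63.8) of the peaks of these 2 lists, against 48.2% in coding genes. A γ-H2AX peak lay in the body of 33 of the 33, against 90.2% of genes of like length and 85% of all coding genes of 20 kb or longer. For ATM it was 32, against 90.1% and 84.5%, and for HMGA2 26, against 87.1% and 81.3%. Densities of γ-H2AX and ATM had a Spearman's rho of 0.476 across the 33 members and of 0.221 across the 10039 coding genes of that size, given as a description. For HMGA2 and γ-H2AX it was lower in the members, 0.2445 against 0.3435, and for HMGA2 and ATM 0.323 against 0.2698. All points of each rho share 1 pair of libraries.

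**Figure D1:**
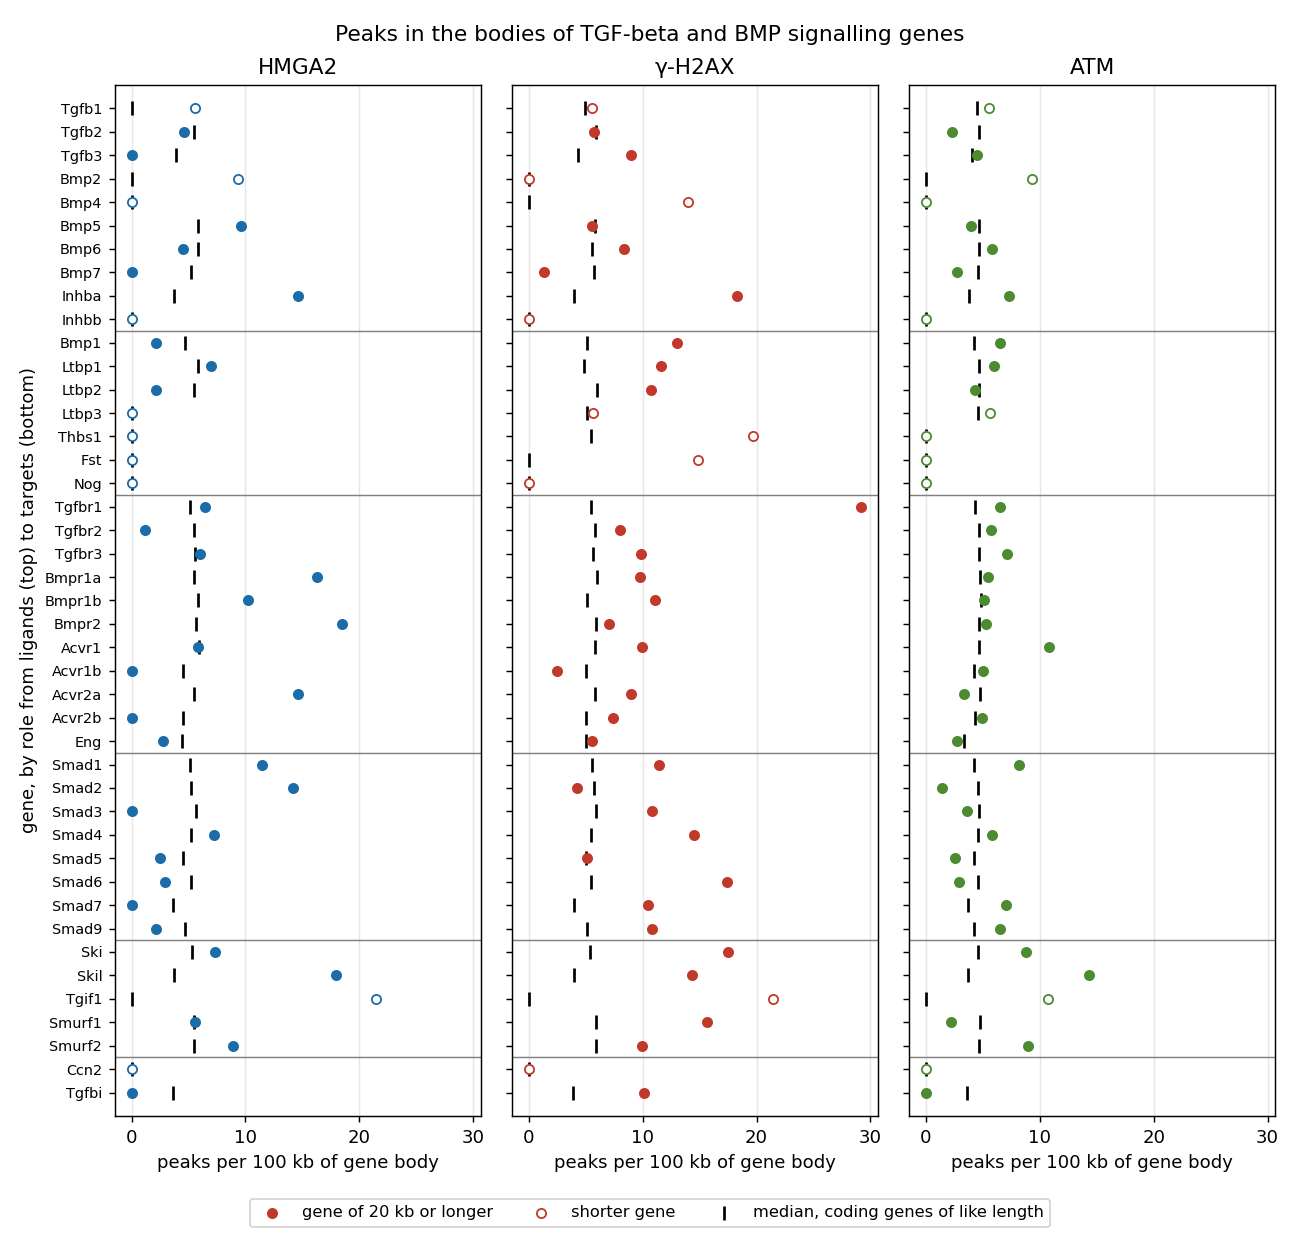
Peaks per 100 kb of gene body (horizontal axis) for each of the 43 genes (vertical axis, by role), with 1 panel for each antibody's library. Filled points are genes of 20 kb or longer, open points shorter genes, and bars the median of coding genes of like length: γ-H2AX lies right of the bar at 28 of the 33 filled points, and Tgfbr1 is farthest right at 29.2.

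**Figure D2:**
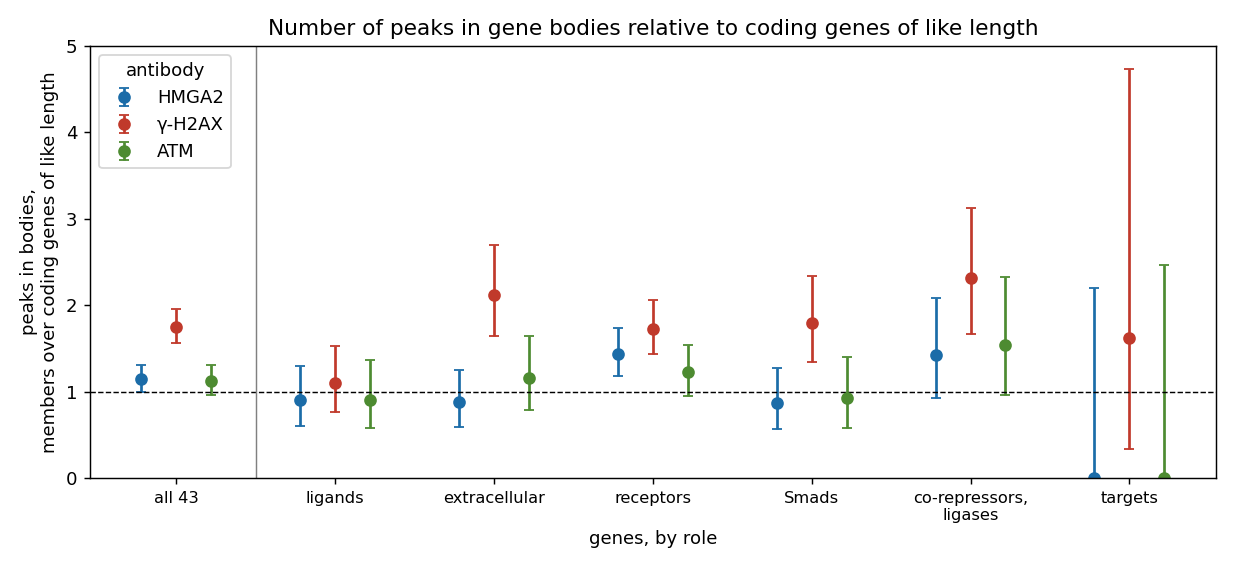
Number of peaks in gene bodies of the members divided by the number in coding genes of like length (vertical axis), for all 43 genes and for each role (horizontal axis), with 95% Poisson intervals for counting error. The intervals leave out the spread between genes, and this ratio was chosen after the data were seen. The γ-H2AX ratio is 1.75 over all 43 genes and has an interval above 1 for the extracellular genes, receptors, Smads and the co-repressors and ligases, but not for the ligands or the 2 targets.

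As a count of genes with a peak, the difference from genes of like length was smaller. A γ-H2AX peak lay in the body of 39 of the 43 members, 90.7% (95% Wilson interval 78.4 to 96.3), against 77.9% of coding genes of like length and 55.2% of all coding genes. ATM peaks lay in 36 bodies, 83.7% against 76.3% of genes of like length and 51.7% of all coding genes. HMGA2 peaks lay in 29, 67.4% against 73.4% of genes of like length and 49.4% of all coding genes. For HMGA2 the ratio of observed to expected genes was 0.919, and 1.17 with scores of at least 30. Peaks of all 3 antibodies were found in 28 bodies, 65.1% of the members, against 33.5% of all coding genes, a share that does not take length into account.

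Within 1 kb of a gene end the shares of members were near or below those of other genes. HMGA2 peaks lay there in 8 members, 18.6% against 20.2% of genes of like length and 17.9% of all coding genes. For γ-H2AX it was 10 members, 23.3% against 25.7% of genes of like length and 23.3% of all coding genes. For ATM it was 5 members, 11.6% (5.07 to 24.5) against 17.2% of genes of like length and 16.1% of all coding genes. With scores of at least 30, where 1 or 2 members remained, the ratio to genes of like length was 1.27 for γ-H2AX in place of 0.905 and 1.18 for ATM in place of 0.676. No member had peaks of all 3 antibodies within 1 kb of its ends, against 1.12% of coding genes. Within 5 kb, γ-H2AX peaks lay at 34 members, 79.1% (64.8 to 88.6) against 65.0% of genes of like length and 58.5% of all coding genes. HMGA2 lay there in 24 members, 55.8% against 58.3% of genes of like length and 52.3% of all coding genes. ATM lay there in 25, 58.1% against 57.5% of genes of like length and 52.3% of all coding genes. Peaks of all 3 antibodies lay within 5 kb of an end, not always the same end, at 15 members. This was 34.9% against 20.8% of all coding genes, a comparison that does not take length into account. The median length was 61.0 kb in the members and 17.2 kb in coding genes.

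**Figure D3:**
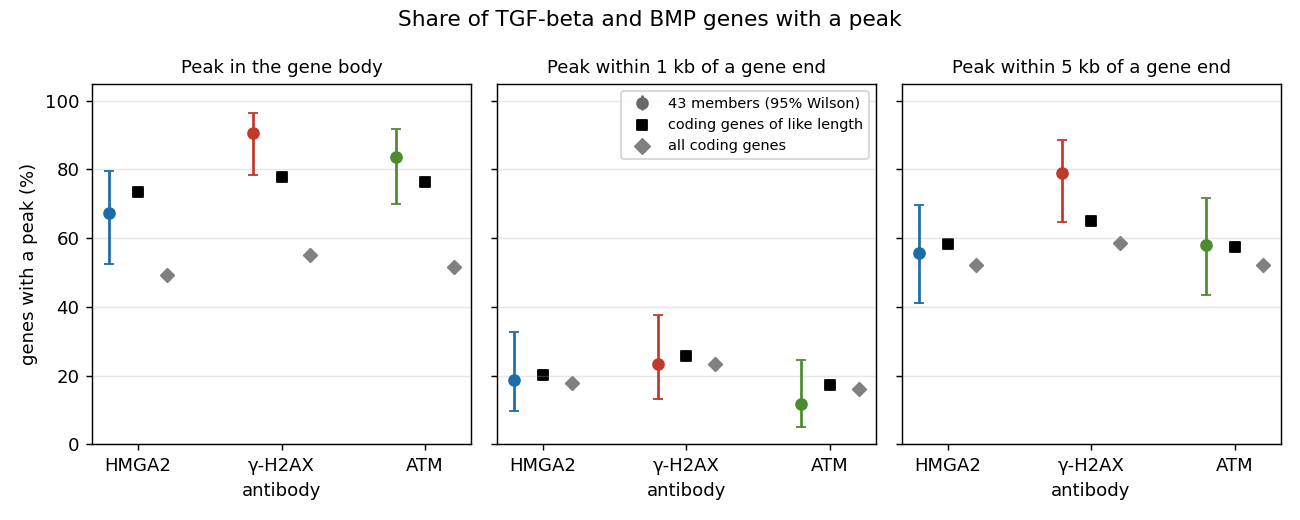
Share of genes with a peak (vertical axis, %) in the body, within 1 kb and within 5 kb of a gene end, for each antibody (horizontal axis). Coloured points are the 43 members with 95% Wilson intervals, squares coding genes of like length and diamonds all coding genes. Within 1 kb the members lie near or below the squares, lowest for ATM (11.6% against 17.2%). For γ-H2AX they lie above the squares in bodies (90.7% against 77.9%) and within 5 kb (79.1% against 65.0%).

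Ligand genes had γ-H2AX peaks in 8 of 10 bodies, against 68.4% of genes of like length, and at a density close to theirs. Their 35 γ-H2AX peaks gave 6.59 per 100 kb against 6.01 in genes of like length (ratio 1.10, 0.764 to 1.525), and HMGA2 and ATM had ratios of 0.902 and 0.908. Inhba, at 16004256 to 16031609 on chromosome 13, stood out among them. It held 4 HMGA2, 5 γ-H2AX and 2 ATM peaks in 27.4 kb, or 14.6, 18.3 and 7.31 per 100 kb, above 92.6%, 97.6% and 76.0% of genes of like length. All 5 γ-H2AX peaks of Inhba lay between 6.06 and 15.25 kb from its annotated 5′ end, on either side of the start whose window is printed above. The annotated gene B230303A05Rik lies over or within 1 kb of them, so these peaks cannot be given to Inhba alone. Bmp7, which encodes a BMP of kidney and bone development, was at the other extreme, with 0 HMGA2, 1 γ-H2AX and 2 ATM peaks in 72.3 kb. A count of 0 allows up to 4.15 HMGA2 peaks per 100 kb there, against a median of 5.24 in genes of like length. Bmp5 and Bmp6, both long BMP genes, were opposed in their leading antibody. In Bmp5 there were 12 HMGA2, 7 γ-H2AX and 5 ATM peaks, and in Bmp6 7, 13 and 9 in the same order.

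Of the 3 TGF-beta isoforms, Tgfb2 held 4 HMGA2, 5 γ-H2AX and 2 ATM peaks in 86.9 kb, each density below the median of genes of like length. An HMGA2 peak of Tgfb2, at 186678451 to 186678777 on chromosome 1, had a score of 42.9, above 98.4% of the HMGA2 list. Tgfb1 had 1 peak of each antibody in its body, and Tgfb3 had 0 HMGA2, 2 γ-H2AX and 1 ATM peaks. At gene ends within 1 kb, γ-H2AX peaks lay beyond the 3′ end of Tgfb2 (score 26.1) and before the 5′ end of Bmp5 (21.2). An ATM peak lay 453 bp inside the 5′ end of Bmp6 (22.45), and an HMGA2 peak at the end of Bmp2 with the higher coordinate (23.1). The strand of Bmp2 was not in the promoter table, so this end was not named further. Bmp4 had 1 γ-H2AX peak in its body and 2 HMGA2 peaks within 5 kb. Inhbb, which encodes the activin βB subunit, had no peak of any antibody in its 6.79 kb or within 5 kb.

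The extracellular genes held 66 γ-H2AX peaks in their bodies, beside 30 of HMGA2 and 31 of ATM. Their γ-H2AX ratio to genes of like length was 2.12 (1.64 to 2.70), and those of HMGA2 and ATM were 0.877 (0.592 to 1.253) and 1.16 (0.787 to 1.64). Ltbp1, at 75005480 to 75392512 on chromosome 17, is the longest member at 387 kb and encodes a protein that stores latent TGF-beta in the matrix. It held 45 γ-H2AX, 27 HMGA2 and 23 ATM peaks, and its 11.6 γ-H2AX peaks per 100 kb were above 98.6% of genes of like length. The highest HMGA2 score of all members was in Ltbp1, 48.3 at 75388192 to 75388456, where an ATM peak with a score of 28.3 overlapped it by 56 bp. Of its γ-H2AX peaks, 9 scored at least 30, the highest 45.4 at 75094742 to 75094933. Ltbp2, a related matrix protein gene on chromosome 12, carried the highest γ-H2AX score of the members, 61.6 at 84862846 to 84863133. It had 10 γ-H2AX peaks in the body but 2 of HMGA2 and 4 of ATM.

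Bmp1, which encodes a metalloproteinase that cleaves procollagens and BMP inhibitors, had 6 γ-H2AX, 1 HMGA2 and 3 ATM peaks in 46.2 kb. Another γ-H2AX peak of Bmp1, with a score of 20.5, lay just beyond its higher-coordinate end and within 1 kb of Sftpc, and it is in the authors' promoter list. Thbs1, which encodes the TGF-beta activator thrombospondin-1, had 3 γ-H2AX peaks in its 15.3 kb body and none there of the other 2 antibodies. An ATM peak of the authors' promoter list (score 21.1) lay within 1 kb of the lower-coordinate end of Thbs1 and of the predicted gene Gm13986. Ltbp3 had 0 HMGA2 peaks in its body and 1 each of γ-H2AX and ATM. The activin inhibitor gene Fst had 1 γ-H2AX peak, within 1 kb of an end (23.1), and HMGA2 peaks only farther out, 2 within 5 kb. Nog, which encodes the BMP inhibitor noggin and is the shortest member at 1.92 kb, had no peak of any antibody in its body or within 5 kb.

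All 11 receptor genes carried γ-H2AX peaks in the body, close to the 93.5% of genes of like length, and all 11 within 5 kb of an end, against 67.7%. In the bodies 123 γ-H2AX peaks gave a ratio of 1.72 (1.43 to 2.06), 107 HMGA2 peaks 1.44 (1.18 to 1.74) and 71 ATM peaks 1.22 (0.954 to 1.54). The HMGA2 ratio came from part of the receptors: 6 lay above and 5 below the median of their genes of like length, and Bmpr1b, Bmpr2, Bmpr1a and Acvr2a held 34, 21, 15 and 13 of the 107 peaks. For γ-H2AX 10 of the 11 lay above it. Tgfbr1, the type I receptor of TGF-beta at 47353222 to 47414926 on chromosome 4, held 18 γ-H2AX peaks in 61.7 kb. Its 29.2 peaks per 100 kb exceeded each of the 1743 coding genes of like length, of which Yap1 came next at 23.4. HMGA2 and ATM had 4 peaks each in Tgfbr1, 6.48 per 100 kb. The γ-H2AX peaks of Tgfbr1 ran from 0.884 to 59.5 kb from its 5′ end, 7 of them in the first 10 kb, and had scores of 20.5 to 37.0 with a median of 24.5. Of these, 7 scored at least 30. At 1.79 kb from the start, an ATM peak (20.8) at 47354897 to 47355119 overlapped a γ-H2AX peak (32.2) by 134 bp and an HMGA2 peak (23.1) by 27 bp. It was the only peak of the members to overlap peaks of both other lists. The predicted gene Gm32435 lies over or within 1 kb of these peaks and of every γ-H2AX peak of Tgfbr1 from 0.884 to 26.9 kb. Those γ-H2AX peaks, the 7 in the first 10 kb among them, cannot be given to Tgfbr1 alone.

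Bmpr2, the type II BMP receptor at 59764279 to 59878081 on chromosome 1, showed the opposite balance. It held 21 HMGA2 peaks, 18.5 per 100 kb and above 98.7% of genes of like length, with 8 γ-H2AX and 6 ATM peaks. Bmpr1a, a type I BMP receptor on chromosome 14, was similar with 15 HMGA2, 9 γ-H2AX and 5 ATM peaks, and 9 HMGA2 peaks lay within 5 kb of its ends. Of these, 2 lay within 1 kb of the 5′ end (21.5 and 25.5) and 2 within 1 kb of the 3′ end (40.9 and 20.9). Acvr2a, a type II activin receptor gene, had 13 HMGA2, 8 γ-H2AX and 3 ATM peaks. These were the 3 receptor genes with more HMGA2 than γ-H2AX peaks. Bmpr1b, a further type I BMP receptor, spans 332.5 kb and held 34 HMGA2, 37 γ-H2AX and 17 ATM peaks. One of its HMGA2 peaks scored 43.02, at 141857386 to 141857744 on chromosome 3, and overlapped a γ-H2AX peak (22.2) by 108 bp.

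Acvr1, a type I receptor of BMPs and activins on chromosome 2, had 13 ATM peaks or 10.8 per 100 kb, above 98.5% of genes of like length, with 12 γ-H2AX and 7 HMGA2 peaks. An HMGA2 peak lay across its 3′ end (24.9). Tgfbr3, the co-receptor betaglycan, held 11 HMGA2, 18 γ-H2AX and 13 ATM peaks in 183.1 kb, with a γ-H2AX peak of 30.7 within 1 kb of its lower-coordinate end. Tgfbr2, the type II receptor of TGF-beta, had 1 HMGA2 peak in 87.7 kb, a density above that of 9.18% of genes of like length, but 7 γ-H2AX and 5 ATM peaks. The highest ATM score of the members, 46.9, was in Tgfbr2 at 116111647 to 116111911 on chromosome 9. The activin receptor genes Acvr1b and Acvr2b had no HMGA2 peak in the body or within 5 kb. An ATM peak of 43.6 lay 0.668 kb before the 5′ end of Acvr2b. Eng, the endothelial co-receptor endoglin, had 1 HMGA2, 2 γ-H2AX and 1 ATM peaks.

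**Figure D4:**
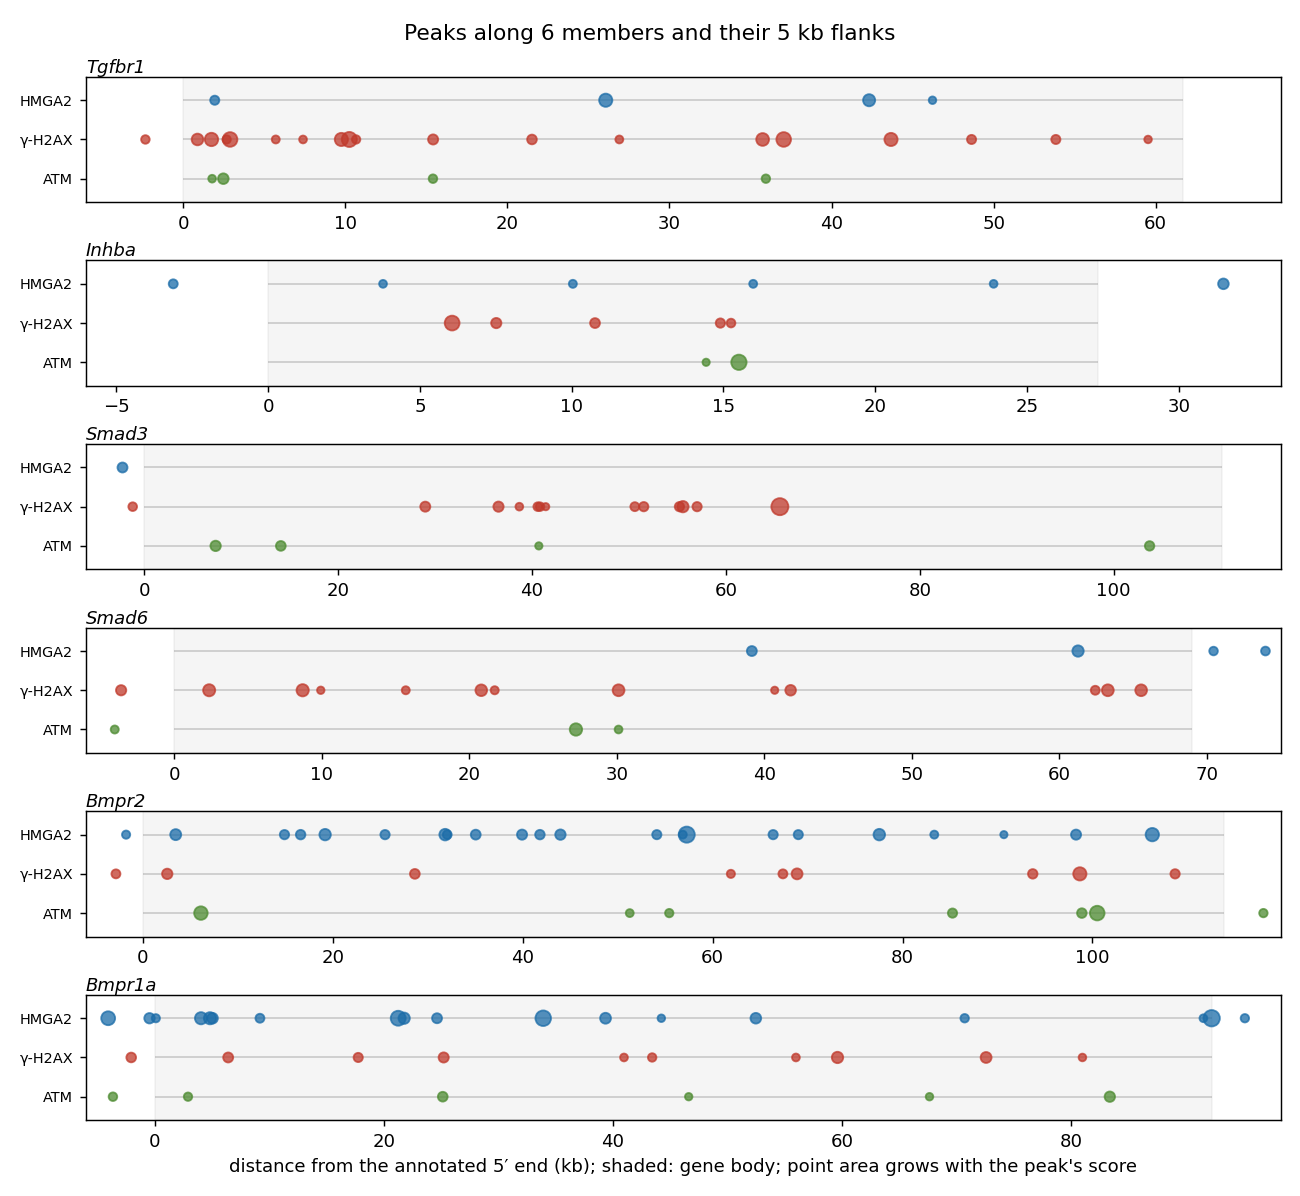
Positions of peaks of the 3 antibodies (rows within each panel) along 6 members, as distance from the annotated 5′ end in kb (horizontal axis), with the body shaded and point area growing with the peak's score. Tgfbr1 holds 18 γ-H2AX peaks, Smad3 has 12 in one stretch of its body and 0 HMGA2 peaks, and Bmpr2 and Bmpr1a carry 21 and 15 HMGA2 peaks along their length.

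All 8 Smad genes carried γ-H2AX and ATM peaks in the body and 6 carried HMGA2, near the shares of 89.1%, 88.9% and 85.4% in genes of like length. The difference lay in the number of γ-H2AX peaks. Their 54 γ-H2AX peaks gave a ratio of 1.79 (1.35 to 2.34), against 0.866 (0.565 to 1.27) for HMGA2 and 0.9245 (0.579 to 1.40) for ATM. Smad3, the receptor-regulated Smad of TGF-beta at 63646766 to 63757994 on chromosome 9, held 12 γ-H2AX peaks, 0 HMGA2 peaks and 4 ATM peaks in 111.2 kb. A count of 0 allows up to 2.70 HMGA2 peaks per 100 kb, below the median of 5.63 in genes of like length, and 1 HMGA2 peak (24.6) lay 2.29 kb before its 5′ end. The 12 γ-H2AX peaks lay between 29.0 and 65.6 kb from the 5′ end, in 36.6 kb of the body, and the highest scored 43.01 at 63692274 to 63692567. Of these, 2 were overlapped by the same ATM peak at 63717199 to 63717372 (score 20.2). Smad6, an inhibitory Smad 195.1 kb away on the same chromosome, also had 12 γ-H2AX peaks, 17.4 per 100 kb and above 98.6% of genes of like length, with 2 each of HMGA2 and ATM.

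Smad2, the partner of SMAD3 in TGF-beta signalling, had the reverse balance, with 10 HMGA2, 3 γ-H2AX and 1 ATM peaks in 70.7 kb. It was the only Smad gene with more HMGA2 than γ-H2AX peaks. An HMGA2 peak (26.9) also lay within 1 kb of its lower-coordinate end. Smad4, the common mediator, held 5 HMGA2, 10 γ-H2AX and 4 ATM peaks in 69.0 kb, and its γ-H2AX density was above 96.8% of genes of like length. An HMGA2 peak (26.4) lay at the higher-coordinate end of Smad4, within 1 kb of 4930578L24Rik, and an ATM peak (21.2) at the other end. Among the BMP Smads, Smad1 had 7 HMGA2, 7 γ-H2AX and 5 ATM peaks, Smad5 had 1, 2 and 1, and Smad9 had 1, 5 and 3 in the same order. In Smad1 a γ-H2AX peak of 42.1 overlapped an HMGA2 peak (22.5) by 177 bp, the widest overlap of these 2 antibodies in the members. Smad7, the other inhibitory Smad, had 0 HMGA2, 3 γ-H2AX and 2 ATM peaks in its body. A γ-H2AX peak (24.9) lay within 1 kb of its higher-coordinate end and of the predicted gene Gm41776.

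The 5 co-repressor and ubiquitin ligase genes had the highest density of γ-H2AX by role, 14.2 per 100 kb and 2.31 times genes of like length (1.66 to 3.12). HMGA2 and ATM had ratios of 1.42 (0.929 to 2.08) and 1.53 (0.961 to 2.32). All 5 bodies carried peaks of all 3 antibodies, where genes of like length carried HMGA2 in 74.96%, γ-H2AX in 79.3% and ATM in 77.9% of bodies. Ski, the co-repressor of Smads, held 12 γ-H2AX, 5 HMGA2 and 6 ATM peaks, with γ-H2AX above 98.8% of genes of like length. Its relative Skil had 5 HMGA2, 4 γ-H2AX and 4 ATM peaks in 27.9 kb, and its 17.9 HMGA2 and 14.35 ATM peaks per 100 kb were above 96.6% and 97.15% of genes of like length. Both ends of Skil had a γ-H2AX peak within 1 kb (24.1 and 20.9). Smurf1, a ubiquitin ligase of Smads and receptors, held 14 γ-H2AX peaks, 15.7 per 100 kb, with 5 of HMGA2 and 2 of ATM. Beyond its 3′ end lay 1 peak of γ-H2AX (43.6) and 1 of ATM (20.5) that did not touch. Smurf2 had 9 HMGA2, 10 γ-H2AX and 9 ATM peaks, and 3 of its γ-H2AX peaks overlapped ATM peaks.

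Tgif1, at 70844205 to 70853532 on chromosome 17, was the only member in both promoter lists of the authors. It held 2 HMGA2, 2 γ-H2AX and 1 ATM peaks in 9.33 kb. Its γ-H2AX peaks lay with their midpoints 237 and 414 bp before the innermost start, with scores of 21.8 and 43.6, and the second was overlapped by the ATM peak (20.8) by 45 bp. The HMGA2 peak printed above lay elsewhere, at another of its 5 listed starts. The γ-H2AX promoter list touched 4 members, 9.3% against 10.9% of coding genes, namely Bmp1, Ltbp1, Bmpr1b and Tgif1. In Ltbp1 its region lay 439 bp before the second listed start, inside the gene, and in Bmpr1b before the annotated 5′ end (score 23.7), 187748 bp from the nearest listed start. The ATM list touched 2, Thbs1 and Tgif1, 4.65% against 4.27%.

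The 2 target genes held 3 peaks in their bodies, all of γ-H2AX. Ccn2, which encodes a matricellular growth factor induced by TGF-beta, had no peak in its 3.24 kb body and 1 HMGA2 peak (22.9) within 1 kb of its higher-coordinate end. Tgfbi, a TGF-beta-induced matrix protein gene, had 3 γ-H2AX peaks in 29.8 kb and 0 of HMGA2 and ATM, where genes of like length had medians of 3.63 and 3.64 per 100 kb. A count of 0 allows up to 10.1 per 100 kb there. Of all members, 2 of 43 had no peak of any antibody in the body or within 5 kb, 4.65% against 10.5% of coding genes. This comparison does not take length into account.

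The 5′ and 3′ ends could be told apart for 30 members. A γ-H2AX peak lay within 1 kb of the 5′ end of 3 of them and of the 3′ end of 2, 10% and 6.67%, against 15.9% and 9.86% of coding genes. For HMGA2 it was 1 and 4 members, 3.33% and 13.3%, against 9.21% and 9.7%. For ATM it was 2 and 1, 6.67% and 3.33%, against 9.02% and 8.47%. Counts this small do not separate the ends. Within 5 kb of the 5′ end γ-H2AX lay at 18 members, 60% against 44.7%, HMGA2 at 13, 43.3% against 38.3%, and ATM at 12, 40% against 35.4%. Within 5 kb of the 3′ end γ-H2AX lay at 15, 50% against 36.5%, HMGA2 at 10, 33.3% against 33.5%, and ATM at 12, 40% against 34%. These shares of coding genes do not take length into account.

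Direct overlaps between antibodies in or within 5 kb of the members were rare. For HMGA2 they were near the level of other genes, and for γ-H2AX with ATM the level of other genes lay just inside the interval. Of 248 HMGA2 peaks, 8 were overlapped by a γ-H2AX peak, 3.23% (95% Wilson interval 1.64 to 6.24) against 3.09% in coding genes, and 8 by an ATM peak, 3.23% against 2.43%. Together this was 16 HMGA2 peaks, 6.45% (4.01 to 10.2) against 5.38%, in 12 genes. Of 352 γ-H2AX peaks, 15 were overlapped by an ATM peak, 4.26% (2.599 to 6.91) against 2.61%, in 11 genes. By role, HMGA2 and γ-H2AX overlapped in the receptor genes Acvr2a, Bmpr1b and Bmpr2, in Smad1, and in both Smurf genes. HMGA2 and ATM overlapped in Acvr1, Acvr2a, Ltbp1, Ski, Skil, Tgfbr1 and Tgfbr3. The γ-H2AX peaks overlapped by ATM lay in Tgfb3, Ltbp1, Ltbp2, Tgfbr1, Bmpr1a, Acvr1, Smad1, Smad3, Smad6, Tgif1 and Smurf2.

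Most of these peaks were close to the authors' threshold, at which the score is 20. The score is the authors' own value for a peak. HMGA2 peaks in or near the members had a median score of 23.65 against 23.75 in the full list, γ-H2AX peaks 23.7 against 23.6, and ATM peaks 22.6 against 23.6. Scores of at least 30 were reached by 31, 41 and 19 of the peaks, 12.5%, 11.65% and 10.2%, against 11.6%, 10.3% and 10.2% of the lists. A score of exactly 43.6 (43.61 as deposited) was shared by 206 HMGA2, 258 γ-H2AX and 276 ATM peaks. Their median widths were 94, 96 and 96 bp, against 169, 168 and 167 bp in the lists. The γ-H2AX peaks of that score at Smad2, Tgif1 and Smurf1 and the ATM peak at Acvr2b were among them. Other scores recurred among member peaks too, such as 36.49 in 99 bp peaks of HMGA2 at Bmp5 and of ATM at Eng. How often they recur in the lists was not counted, and the counts of scores of at least 30 include such peaks. No order of strength was read from the score of 43.61.

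A further 77 genes of the pathway were also listed with earlier results known, as other ligands, inhibitors, receptors, regulators and targets. They held 6.99 γ-H2AX peaks per 100 kb of body, against 10.35 in the 43. Their γ-H2AX ratio to genes of like length was 1.185 (1.04 to 1.345), that of HMGA2 1.32 (1.16 to 1.48) and that of ATM 1.07 (0.9195 to 1.24). The intervals of γ-H2AX and HMGA2 thus lay above 1 in the 77 genes as well, or in HMGA2's case only there. The intervals of γ-H2AX in the 43 and the 77 genes do not overlap, but they cover counting error only and leave out the spread between genes. With both lists chosen as stated, they cannot show that the lists differ, and the difference was not tested over samples. HMGA2 peaks lay within 1 kb of an end at 18 of the 77 and within 5 kb at 45, 23.4% and 58.4% against 17.9% and 51.9% of genes of like length. For γ-H2AX it was 15 and 48, 19.5% and 62.3% against 24.5% and 60.03%. For ATM it was 15 and 42, 19.5% and 54.5% against 16.5% and 52.6%. Peaks of all 3 antibodies lay within 5 kb of either end, not necessarily the same one, at 15 genes, 19.5% against 20.8% of coding genes. Among them were the ligand gene Gdf6, the BMP inhibitor gene Chrd, the matrix genes Dcn, Fbn1, Fn1 and Col1a1, and the target genes Id1 and Id2. The γ-H2AX promoter list held 12 of the 77, Gdf1, Gdf9, Rgma, Zfyve9, Nedd4l, Runx2, Zeb2, Id1, Id2, Id4, Snai1 and Snai2, 15.6% against 10.9% of coding genes. The ATM list held 5, Acvr1c, Rgma, Trim33, Runx2 and Id2, 6.49% against 4.27%. Densest in γ-H2AX among those of 20 kb or longer was Dcn, which encodes the TGF-beta-binding proteoglycan decorin, with 18.1 peaks per 100 kb.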

How the data were processed

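ChIP-seq peaks of HMGA2, γ-H2AX and ATM from Hmga2 wt MEF were used, 1 library each. Per the labels, the authors called peaks with MACS14 without its model, with shiftsize 30 bp and p = 0.01. Per the submitters' processing notes, tools included Trimmomatic, Bowtie2, SAMtools and HOMER, with the mm10 build. Which library served as control for calling is not given in the sources used here. The deposited score is, as MACS writes it, -10 times the log10 of a peak's p and was not compared as an amount between lists. The authors' promoter regions carry positions only. Read depth is unknown from the peak lists.

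Peaks sharing at least 1 bp with a gene body, or with windows of 1 kb or 5 kb either side of either end, were counted (Python 3.11.15, pandas 2.3.3, SciPy 1.17.1). Counts were tested on simulated peaks and equalled those of bedtools 2.31.1. Genes, starts and sequences came from RefSeq on GRCm38, the assembly of mm10; strand was known for 30 members. Genes of like length are other coding genes from 0.8 times a member's length to the inverse of that factor. Named were members with a peak within 1 kb, with the highest scores or densities, with overlaps, in a promoter list, or with no peak; the other genes shown were added to complete each role. Other pathway genes were named where all 3 antibodies lay within 5 kb or in a promoter list, and some of these are not reported here. Members and both gene lists were chosen with earlier results of these data known. Alternatives are given in the closing section.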

Additional observations from a re-analysis of the deposited data

How the results depend on the processing

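Peak counts rest on 1 library per antibody and on peaks near the authors' threshold. With scores of at least 30, members with HMGA2, γ-H2AX and ATM peaks numbered 15, 20 and 12 in bodies, 1, 2 and 1 within 1 kb and 5, 6 and 2 within 5 kb of an end. Densities were then 0.930, 1.25005 and 0.577 peaks per 100 kb. The ratio of members with a body peak to genes of like length became 1.17 for HMGA2 and 1.56 for γ-H2AX, that within 5 kb became 0.561 for ATM, and those within 1 kb became 1.27 for γ-H2AX and 1.18 for ATM, inside their intervals. The ratio of γ-H2AX peak numbers in bodies became 1.96. The lower counts and densities follow from fewer peaks being counted, and the cause of the changed ratios was not tested.

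With windows of 500 bp the members numbered 5 (HMGA2), 4 (γ-H2AX) and 2 (ATM), and at the 5′ end alone, for 30 members, 1, 3 and 2. The median HMGA2 density of members of at least 20 kb was 5.59 per 100 kb in place of the pooled 6.99, which long genes weigh on. Of HMGA2 peaks, 2 were overlapped by γ-H2AX and 3 by ATM over at least 50% of their width, and 23 and 19 when 500 bp intervals were set around midpoints. The 100000 highest-scoring peaks of each list, peak midpoints, length deciles, leaving out the longest member or Tgfbr1, and leaving out peaks under 100 bp moved no value beyond its interval or by more than 1.5 times. Leaving out Tgfbr1 or narrow peaks, and the ratio of peak numbers itself, were chosen after the data were seen. No paired analysis was possible because each antibody and genotype has 1 library.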

Other observations

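Along the bodies of the 25 members of 20 kb or longer with a known strand, γ-H2AX peaks were not gathered at the 5′ end. Of 5 equal stretches, the one at the 5′ end held 53 of 267 γ-H2AX peaks, 19.9% against 22.4% in coding genes, and the one at the 3′ end 55, 20.6% against 18.2%. HMGA2 had 34 of 182 peaks in the 5′ stretch, 18.7% against 21.3%, and 24 in the 3′ stretch, 13.2% against 17.9%. ATM had 29 of 135 in the 5′ stretch, 21.5% against 20.8%.

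Snai1 and Snai2, which encode transcription factors of epithelial-mesenchymal transition induced by TGF-beta, each had 6 γ-H2AX peaks within 5 kb of their ends, with highest scores of 31.7 and 32.8. HMGA2 had 1 peak there at Snai1 and 0 at Snai2, and ATM 0 and 1. Both genes are under 5 kb long and are in the γ-H2AX promoter list.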
